A study of Mus musculus with 11 samples.

Results

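The genes described here encode the proteins through which cells send, receive and restrain Wnt signals: the Wnt ligands, their Frizzled (Fzd) receptors and Lrp5 and Lrp6 co-receptors, the secreted Sfrp and Dkk proteins and the R-spondins (Rspo). They were chosen by gene name on the array, as every gene named Wnt, Fzd, Sfrp or Dkk with a number, every Rspo gene, and Lrp5 and Lrp6. This gave 43 of the 27962 genes on the array, read by 58 probes, with 19 Wnt, 10 Fzd, 2 Lrp, 4 Sfrp, 4 Dkk and 4 Rspo genes. Their RNA was followed in normal mouse liver through 4 stages, namely E14.5 (3 arrays), E18.5 (3 arrays), P5 (2 arrays, numbered 2 and 3) and P56 (3 arrays), and the labels call the replicates biological. The array labels give the embryonic ages as days 14 and 18, and the study's text names them E14.5 and E18.5, as here. No genotype, treatment or sex is labelled for these livers, and C57BL/6 is the strain named in the methods for embryonic livers from which cells were isolated. The sources differ on what the arrays hold. The label of the material is mouse liver, a second label field names hepatoblasts at E14.5, immature hepatocytes at E18.5 and hepatocytes after birth, and the extraction protocol covers both whole livers and isolated cells, so this was not settled here. Each array carried this RNA in Cy5 against a Cy3 channel that the labels name as normal adult mouse liver throughout.

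In the best known branch of the pathway, a Wnt protein binds a Frizzled receptor together with Lrp5 or Lrp6, which keeps β-catenin from being degraded so that it can act with TCF and LEF factors on target genes. Sfrp proteins bind Wnts outside the cell, most Dkk proteins block the Lrp co-receptors, and R-spondins strengthen the signal by keeping Frizzled receptors at the surface. In liver the pathway is known for its part in hepatoblast growth and in the zonation of adult hepatocytes around the central vein.

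Values are log2 ratios of Cy5 over Cy3 after background correction and loess normalization within each array, so that 0 is the level of the adult reference, and a probe's ratio says nothing about another probe's level. "Above background" means that the scanner software marked the probe as well above background in Cy5. In Cy3, the reference, Dkk1, Dkk2 and Fzd9 were so marked on none of the 11 arrays. Sfrp4 was marked there on 2, Wnt10a on 3, Sfrp2 and Fzd2 on 4 and Wnt11 on 5. Where neither channel was marked, a ratio near 0 is no measure of the adult level. Between 22027 and 23957 spots were above background on the E14.5 arrays, against 24415 to 25718 for E18.5 and 24921 to 25130 for P5. Fewer were at P56, from 16790 on replicate 2 up to 23079. Pearson's r between replicates was at least 0.969 in both embryonic stages, 0.901 in P5 and between 0.827 and 0.937 in P56. Scan times divide the arrays into 4 scans. E18.5 replicate 1 shared the first with all of E14.5, and P5 replicate 3 shared the last with all of P56. No scan held both embryonic and postnatal arrays, so for P5 against E18.5 and for P56 against E14.5 scan and stage cannot be told apart. In RNA of whole tissue, fewer cells of a type and less RNA per cell cannot be told apart either.

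Because each level is that of 1 short stretch of a transcript, the first 30 bases of the 60-base probes are given for genes whose changes carried the results, together with both probes of Wnt6, which disagreed. Letters are all lower case, since no motif is marked.
Sfrp2: tcggcatctaagtcttcaaacatttcgttg
Dkk1: tactgtgttgtaaatcctcagtgtggcact
Wnt5b: ggaagatgagtgtctgtgaccctggccatt
Wnt2: aaagagtaagcaagggctttaactaagtga
Fzd4: acacacgtaaggtatccagtggatttctct
Wnt6, brighter probe: attcccctgaaaggccctttgctagttctg
Wnt6, dimmer probe: ttcctcagaattactgggatggatgggtga
On mouse build mm7, as the array files give it, these probes lie at chr3:83878918-83878977 on the plus strand for Sfrp2, chr19:30246086-30246145 on the minus strand for Dkk1 and chr6:119458136-119458195 on the minus strand for Wnt5b. The Wnt2 probe lies at chr6:17929740-17929799 on the minus strand and the Fzd4 probe at chr7:85346032-85346091 on the plus strand. Both Wnt6 probes lie on the plus strand, the brighter at chr1:75024467-75024532 and the dimmer at chr1:75024567-75024626. Which exon or part of the transcript each probe covers was not analysed here.

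Fewer of these genes were detected in adult liver than at earlier stages. At least 1 probe was above background on all arrays of the stage for 25 of the 43 genes at E14.5 (58.1%), for 23 at E18.5 (53.5%), for 21 at P5 (48.8%) and for 10 at P56 (23.3%). Over all 27962 genes the shares were 52%, 55.7%, 56.3% and 43.4% in the same order. These shares were not tested against each other. The count at P56 rested partly on single arrays, since it was 14 without replicate 2, and 21 genes were detected on at least 1 array of P56. In Cy3, the adult reference, 25, 24 and 23 genes were above background on replicates 1, 2 and 3 of P56, against 20, 11 and 15 in Cy5. Sfrp1, Dkk3, Fzd6, Fzd8, Lrp6 and Wnt7b were above background in Cy3 on all 11 arrays. A low count in Cy5 at P56 is thus not absence from adult liver.

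**Figure D1:**
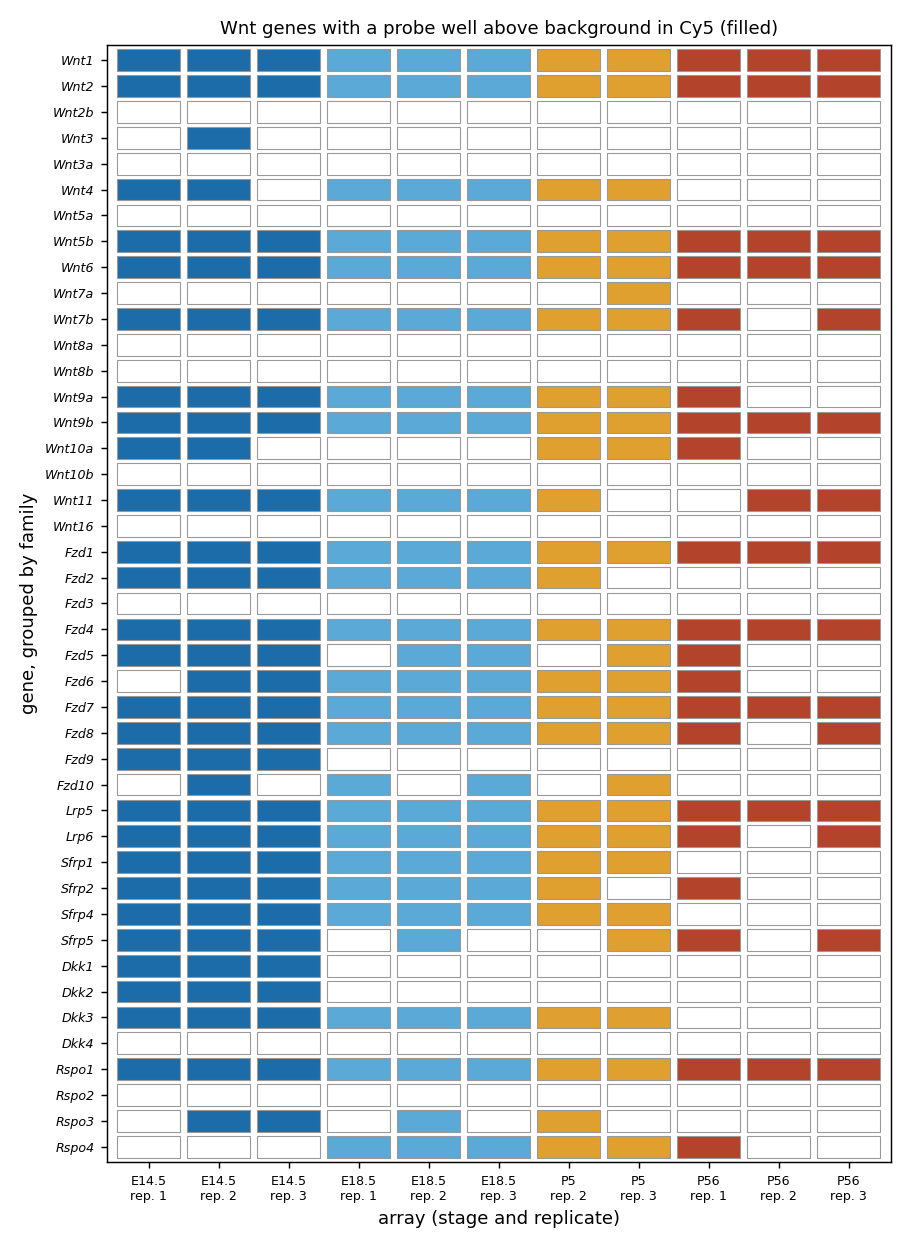
Each row is 1 of the 43 genes, grouped by family, and each column 1 of the 11 arrays, labelled by stage and replicate, and a filled cell marks a gene with at least 1 probe well above background in Cy5. Cells thin out toward P56, where 10 genes are filled on all 3 arrays, and Dkk1, Dkk2 and Fzd9 are filled at E14.5 only.

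The 10 genes detected on every array of every stage were the ligands Wnt1, Wnt2, Wnt5b, Wnt6 and Wnt9b, the receptors Fzd1, Fzd4 and Fzd7, the co-receptor Lrp5 and the agonist Rspo1. No Sfrp or Dkk gene was detected on all arrays of P56, against 4 Sfrp and 3 Dkk genes at E14.5. Dkk1, Dkk2 and Fzd9 were above background on the 3 arrays of E14.5 and on no other array, and Fzd5 and Sfrp5 were detected on all arrays of E14.5 only and on some arrays of later stages. Fzd2, Sfrp2 and Wnt11 were detected throughout E14.5 and E18.5, and Dkk3, Fzd8, Lrp6, Sfrp1, Sfrp4, Wnt7b and Wnt9a up to P5. Fzd6, Rspo4 and Wnt4 were detected on all arrays of E18.5 and P5 but not of E14.5 or P56, and Wnt10a on all arrays of P5 alone.

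The other 14 genes were above background on all arrays of no stage, and no difference is given for them. Of these, Wnt3 and Wnt7a were above background on 1 array each, and Fzd10 and Rspo3 on 4 arrays each. The remaining 10, above background on no array in either channel, were Wnt2b, Wnt3a, Wnt5a, Wnt8a, Wnt8b, Wnt10b, Wnt16, Fzd3, Dkk4 and Rspo2. A probe that is not well above background gives no measure of how much of its transcript was there.

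The 29 genes detected throughout at least 1 stage entered the tests between stages, which were fitted with limma over the 16704 genes tested and adjusted over all of them. At E18.5 against E14.5, 4 of the 29 genes were higher and 11 lower, against 24.6% of all genes higher and 22.8% lower, and 1 was higher and 8 lower with scale normalization between arrays. From E18.5 to P5, 2 were higher and 2 lower, beside 7.32% and 6.4% of all genes, with 1 and 3 under median centring in place of loess. From P5 to P56, 2 were higher and 3 lower, beside 20.9% and 24.7% of all genes, with 4 and 3 in the Cy5 channel alone and 1 and 9 with median centring. Between the end points, P56 against E14.5, 8 were higher and 12 lower, beside 36.1% and 34.8% of all genes. With median centring, 1 was higher and 11 lower, but this centring moved the median of all genes tested in that comparison to -0.33 (from 0.04), and to -0.47 at P56 against P5 (from -0.02). None of the calls against P5 passed with the methods' t-test, which gave 0 of 29 genes in both comparisons with P5 after adjustment, and 9 and 6 at an unadjusted p under 0.05.

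The median difference over the 29 genes was -0.20 on the log2 scale at E18.5 against E14.5, 0.02 at P5 against E18.5, -0.05 at P56 against P5 and -0.09 at P56 against E14.5, beside -0.01, 0.00, -0.02 and 0.04 over all genes tested. A gene such as Dkk1, Dkk2 or Fzd9 that passed only through E14.5 had to be lower later, so these counts and medians only describe the genes that passed. In all, 21 genes differed in at least 1 comparison, and in each such comparison the arrays of the stages did not overlap. With so few arrays per stage, this lack of overlap is no separate support for the calls. Neither number was counted over all genes tested. The 4 comparisons share arrays and are not independent of each other. Within the first scan the differences at E18.5 were 0.337 to 1.23 times those over all arrays for the 15 genes that differed, and within the last scan those at P56 against P5 were 0.760 to 1.11 times for the 5 that differed.

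**Figure D2:**
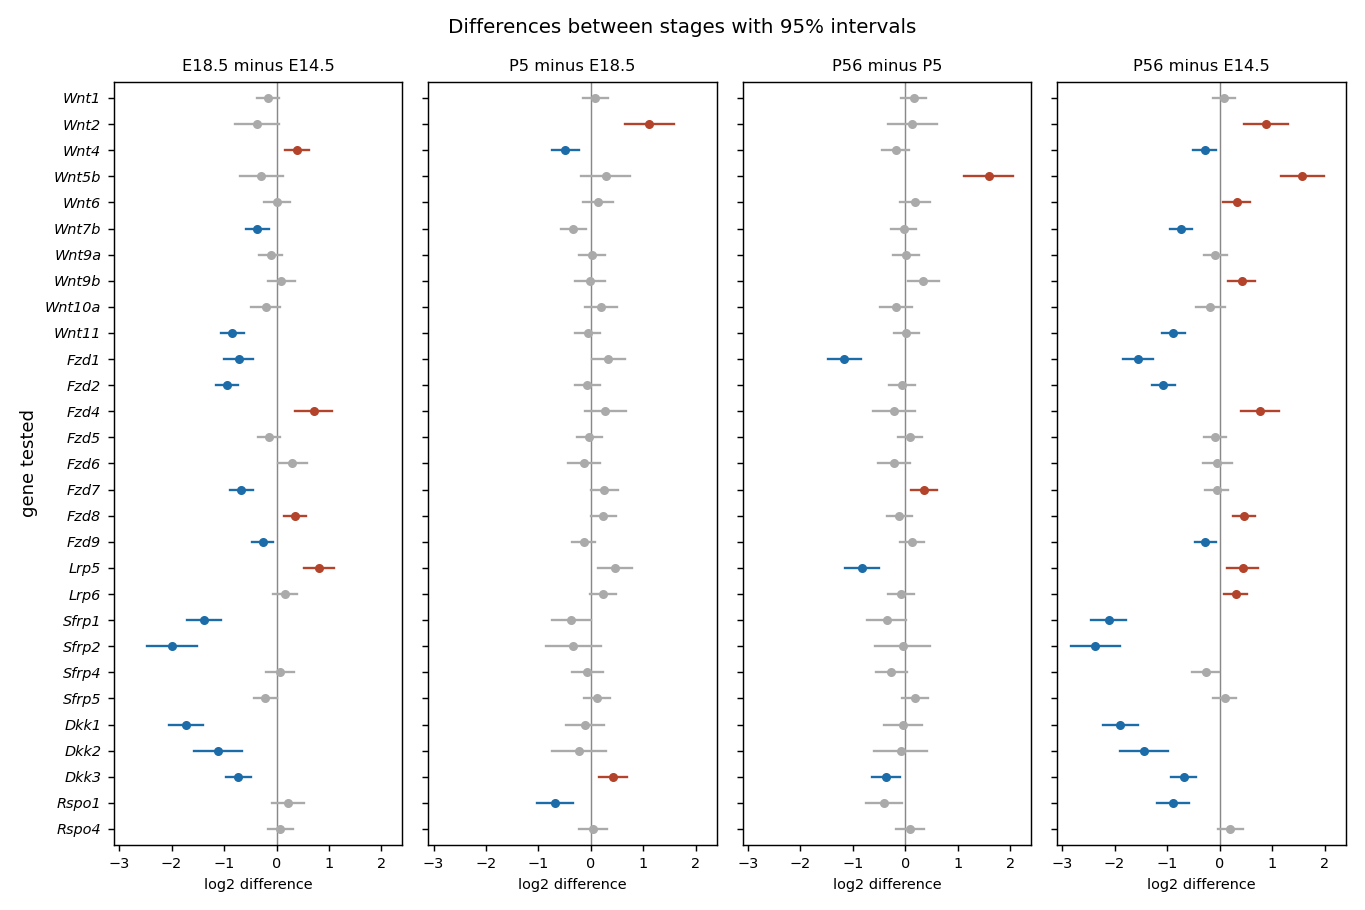
Points are differences in log2 ratio between stages for the 29 genes tested, one panel per comparison, with 95% confidence intervals from limma, red where higher and blue where lower at an adjusted p under 0.05 and grey otherwise. Sfrp1, Sfrp2, Dkk1, Dkk2 and Dkk3 all lie left of 0 at E18.5 minus E14.5, and Wnt5b lies farthest to the right at P56 minus P5 (1.59). Median centring turned the sign of the P56 minus E14.5 differences of Fzd4, Lrp5, Lrp6, Wnt2 and Wnt6 and of the P56 minus P5 difference of Fzd7, and Lrp5 and Wnt6 also turned under other settings named in the text.

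Among the Sfrp and Dkk genes, Sfrp1, Sfrp2, Dkk1, Dkk2 and Dkk3 fell between E14.5 and E18.5. All 5 were also lower at P56 than at E14.5. Dkk1 and Dkk2, as well as Sfrp5, entered the tests only through their signal at E14.5, so no count over the families is drawn from them. For Dkk1 and Dkk2 this filter favoured a fall, so their adjusted p below describe the difference and are no separate support for it. Sfrp2, a secreted protein that binds Wnts through a Frizzled-like domain, had log2 ratios of 2.08, 3.07 and 2.08 at E14.5, 0.28, 0.47 and 0.50 at E18.5, 0.15 and 0.02 at P5, then 0.10, 0.04 and -0.03 at P56. Every array of E14.5 was thus above every later array. The difference at E18.5 was -1.99 (SE 0.21, limma adjusted p = 1.39e-05), and within the first scan it was -2.13. At P56 against E14.5 it was -2.37 (SE 0.21, limma adjusted p = 1.04e-06), with 1 of 3 arrays of P56 above background.

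Sfrp1, a related Wnt-binding protein, had log2 ratios of 1.83, 2.23 and 1.53 at E14.5, 0.51, 0.56 and 0.36 at E18.5, 0.16 and 0.04 at P5, then -0.34, -0.14 and -0.28 at P56. The stages followed each other without overlap. The gene fell by 1.39 at E18.5 (SE 0.15, limma adjusted p = 1.56e-05; within the first scan the difference was -1.35). The next steps, -0.38 to P5 (adjusted p = 0.164) and -0.35 to P56 (adjusted p = 0.107), did not pass the threshold one by one. The difference at P56, where no array was above background, from E14.5 was -2.12 (SE 0.15, limma adjusted p = 1.31e-07). A second, dimmer Sfrp1 probe, above background on 3 arrays, gave -0.43 at E18.5 against E14.5.

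Dkk1, which binds Lrp5 and Lrp6 and keeps them from Wnt, had log2 ratios of 1.52, 1.99 and 2.07 at E14.5, 0.35, -0.05 and 0.09 at E18.5, 0.01 and 0.01 at P5, then -0.18, 0.06 and 0.02 at P56. None of the 8 later arrays was above background, and all lay below those of E14.5. The difference in log2 ratio at E18.5 was -1.73 (SE 0.15, limma adjusted p = 2.37e-06), set against arrays not above background. In Cy5 level Dkk1 was at least 3.42-fold higher at E14.5 than at P56, where the adjusted p of the ratio was 3.25e-07 in limma. Such bounds set the mean Cy5 level of the brighter stage against, on each dim array, the higher of the probe's own level and the dimmest level marked well above background. They leave out the Cy3 channel, are open to dye bias since no dyes were swapped, and are given only where the fold of the ratios was not smaller. Its second probe, also above background at E14.5 only, gave -0.42 at E18.5. Within the first scan the difference of the brighter probe was -1.51.

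Dkk2, a relative that can block or assist the co-receptors, had log2 ratios of 1.23, 1.84 and 0.74 at E14.5, 0.07, 0.27 and 0.11 at E18.5, -0.11 and -0.05 at P5, then -0.05, -0.15 and -0.30 at P56, again with no later array above background. The lowest value of E14.5 was still higher than every later one. In Cy5 level Dkk2 at E14.5 was at least 2.13-fold higher than at E18.5 (for the ratio, limma adjusted p = 0.000910) and at least 2.34-fold higher than at P56 (for the ratio, limma adjusted p = 6.19e-05). The first of these calls was lost with the methods' t-test (adjusted p = 0.0541) and in the authors' table (-2.06, adjusted p = 0.0714).

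Dkk3, a divergent member of the family, followed another course. Its log2 ratios were 0.39, 0.25 and 0.65 at E14.5, -0.24, -0.38 and -0.28 at E18.5, 0.18 and 0.05 at P5, then -0.31, -0.23 and -0.22 at P56, so it was high, low, intermediate and low again. The fall at E18.5 was -0.73 (SE 0.11, limma adjusted p = 0.000179) and stood at -0.67 within the first scan. The rise of 0.42 to P5 (SE 0.12, limma adjusted p = 0.0412) lost its call without any 1 of 7 arrays, including each array of P5 and E18.5 (adjusted p = 0.057 to 0.122), replicate 1 of E14.5 and replicate 3 of P56. It was also lost under 8 other settings, among them the Cy5 channel alone (0.27, adjusted p = 0.247) and the authors' table (1.25, adjusted p = 0.0561). At P56, where no array was above background, the difference from P5 was -0.37 (SE 0.12, limma adjusted p = 0.0273), with adjusted p = 0.176 without replicate 2 of P5, 0.0616 without replicate 1 of P56 and 0.191 with the scan as a block. From E14.5 it was -0.68 (SE 0.11, limma adjusted p = 0.000134).

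The other 2 Sfrp genes tested passed no test. Sfrp4 averaged 0.29 ± 0.07 (SD, n = 3) at E14.5, 0.35 ± 0.07 (n = 3) at E18.5, 0.29 ± 0.30 (n = 2) at P5 and 0.02 ± 0.15 (n = 3) at P56, where no array was above background. Its difference at P56 against E14.5 was -0.27 (95% interval -0.53 to -0.01, adjusted p = 0.0616). Sfrp5 averaged 0.06, -0.16, -0.04 and 0.15 over the stages in order, and was above background on 1 array each of E18.5 and P5 and 2 of P56.

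**Figure D3:**
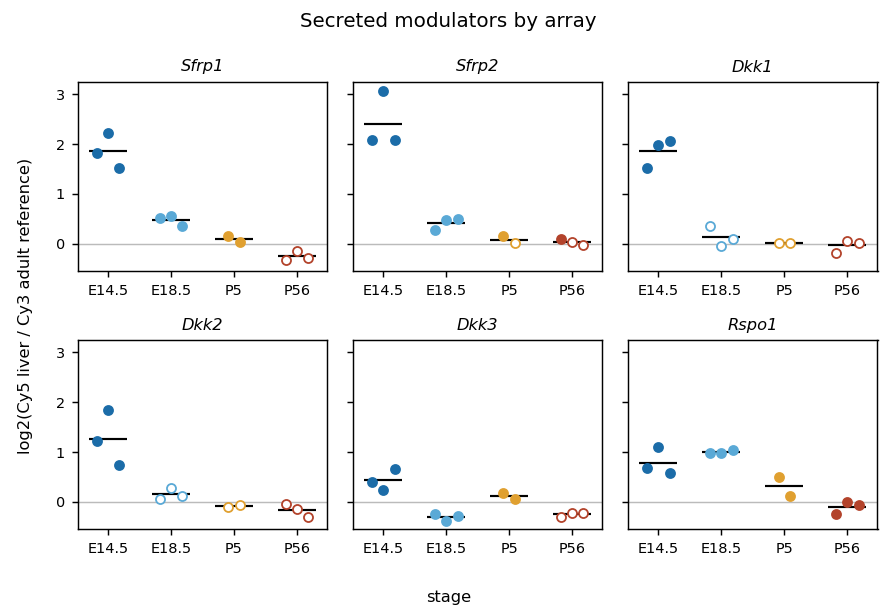
Log2 ratio of liver over the adult reference for each array, by stage, in 6 secreted modulators, with filled points above background in Cy5, open points not, and bars at the stage mean. In Sfrp1, Sfrp2, Dkk1 and Dkk2 the 3 points of E14.5 lie above all later points, while Rspo1 is still high at E18.5 (0.97 to 1.05) and falls after birth.

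R-spondins, which act as agonists, were represented by 2 genes tested. Rspo1 had log2 ratios of 0.68, 1.09 and 0.59 at E14.5, 0.98, 0.97 and 1.05 at E18.5, 0.49 and 0.12 at P5, then -0.24, 0.00 and -0.06 at P56. The difference at E18.5 against E14.5 was 0.21 (95% interval -0.10 to 0.52, adjusted p = 0.243). It fell by 0.69 from E18.5 to P5 (SE 0.16, limma adjusted p = 0.0140), a call that was lost without replicate 3 of P5 (-0.50, adjusted p = 0.147) or replicate 3 of E18.5 (-0.67, adjusted p = 0.0517) and with scale normalization (-0.46, adjusted p = 0.0790). The difference at P56 against E14.5 was -0.89 (SE 0.14, limma adjusted p = 0.000126). Rspo4 averaged -0.09, -0.02, 0.01 and 0.10 over the 4 stages, with no array of E14.5 and 1 array of P56 above background, and passed no test.

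Among the 10 ligands tested, 1 rose and 2 fell between E14.5 and E18.5, and 4 were higher and 3 lower at the end point P56 than at E14.5, beside the 24.6% and 22.8%, then 36.1% and 34.8%, of all genes given above. The 2 that fell early were Wnt11 and Wnt7b. Wnt11, a ligand best known for signaling without β-catenin, had log2 ratios of 0.90, 1.02 and 0.94 at E14.5 and of 0.25, -0.04 and 0.12 at E18.5, followed by 0.08 and 0.03 at P5, then -0.02, 0.17 and 0.06 at P56. The arrays of E14.5 stood apart from all later ones. The fall was -0.84 (SE 0.10, limma adjusted p = 2.63e-05; -0.70 within the first scan), and the difference at P56 against E14.5 was -0.88 (SE 0.10, limma adjusted p = 6.31e-06).

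Wnt7b, a ligand of the β-catenin branch in several epithelia, came down in steps, from 0.72, 0.67 and 0.73 at E14.5 to 0.51, 0.34 and 0.17 at E18.5, -0.01 and 0.02 at P5, then -0.11, 0.00 and 0.02 at P56. The first step was -0.37 (SE 0.10, limma adjusted p = 0.00889), but within the first scan it was -0.19, and with the scan as a block its adjusted p was 0.263. The second step, -0.34 to P5, had adjusted p = 0.0641. P56 minus E14.5 gave -0.73 (SE 0.10, limma adjusted p = 3.11e-05), with no overlap between the arrays.

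Wnt5b and Wnt2 were higher late. Wnt5b, a relative of Wnt5a, had log2 ratios of -0.64, -0.62 and -1.01 at E14.5, -1.03, -0.90 and -1.21 at E18.5, -1.15 and -0.39 at P5, then 0.66, 0.75 and 1.05 at P56. Only the adult arrays lay above the reference, and the 2 arrays of P5 differed from each other more than the arrays of any other stage. The rise from P5 to P56 was 1.59 (SE 0.21, limma adjusted p = 9.61e-05), and it was 1.21 against replicate 3 of P5 within the last scan. The difference from E14.5 was 1.58 (SE 0.19, limma adjusted p = 1.21e-05). A second Wnt5b probe, above background on 2 arrays only, gave 0.30 at P56 against P5.

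Wnt2, a ligand made by endothelial cells of the liver sinusoids, had log2 ratios of -0.28, 0.20 and -0.54 at E14.5, -0.65, -0.51 and -0.56 at E18.5, 0.47 and 0.61 at P5, then 0.34, 1.04 and 0.65 at P56. All postnatal arrays were higher than all embryonic ones. The step from E18.5 to P5 was 1.12 (SE 0.21, limma adjusted p = 0.00602), and it did not pass with scale normalization (1.55), with the methods' t-test on these values (adjusted p = 0.0734), or in the authors' table (1.29, adjusted p = 0.0571). At P56 against E14.5 the difference was 0.88 (SE 0.19, limma adjusted p = 0.00136), while with median centring it was 0.00 against a median of -0.33 over all genes tested.

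Wnt4, a ligand of mesenchymal and epithelial cells in many organs, peaked at E18.5. Its log2 ratios were 0.23, 0.28 and 0.05 at E14.5, 0.66, 0.63 and 0.43 at E18.5, 0.14 and 0.02 at P5, then -0.06, -0.22 and -0.02 at P56, where no array was above background. It rose from E14.5 to E18.5 by 0.39 (SE 0.10, limma adjusted p = 0.00919; 0.47 within the first scan), but not past the threshold from the scanner software's processed signals (0.80, adjusted p = 0.141) or in the authors' table (0.37, adjusted p = 0.597). The difference at P5 against E18.5 was -0.49 (SE 0.12, limma adjusted p = 0.0173), a call lost without replicate 1 of E18.5 (adjusted p = 0.055), replicate 2 of E18.5 (adjusted p = 0.0596) or replicate 3 of P5 (adjusted p = 0.130). Wnt4 was at least 1.21-fold lower in Cy5 level at P56 than at E14.5. For the ratio the limma adjusted p was 0.0270, a call that was lost without replicate 1 or 2 of E14.5 or replicate 2 of P56 (adjusted p = 0.0768 to 0.0976).

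**Figure D4:**
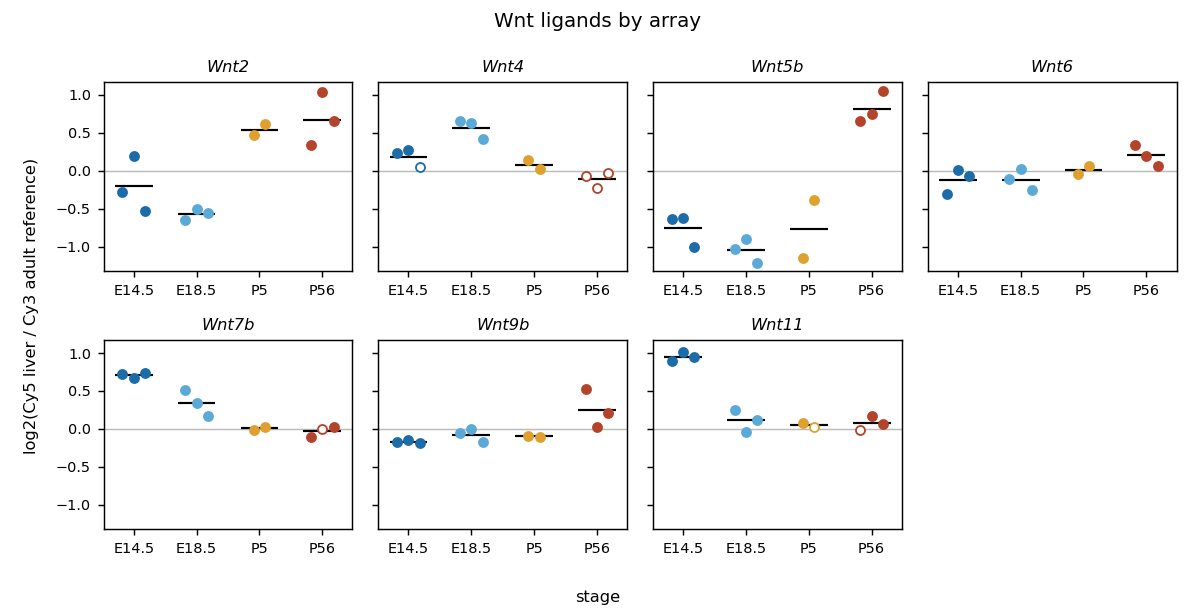
Log2 ratio of liver over the adult reference for each array, by stage, in the 7 Wnt ligands that differed in at least 1 comparison, with filled points above background in Cy5, open points not, and bars at the stage mean. Wnt7b and Wnt11 are highest at E14.5, Wnt4 peaks at E18.5 (0.43 to 0.66), and Wnt2 and Wnt5b are highest at P56. The differences of Wnt2 and Wnt6 at P56 from E14.5 turned sign with median centring, and that of Wnt6 also with the mean over its probes and in the authors' table.

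Wnt9b and Wnt6 differed between the end points only. Wnt9b, another ligand of sinusoidal and central vein endothelium, had log2 ratios of -0.17, -0.15 and -0.19 at E14.5, -0.06, -0.01 and -0.17 at E18.5, -0.09 and -0.10 at P5, then 0.52, 0.02 and 0.21 at P56. Only the arrays of P56 lay above 0. The difference from E14.5 was 0.42 (SE 0.12, limma adjusted p = 0.00723), and that from P5 was 0.35 (adjusted p = 0.0501). With median centring the first was 0.11 (adjusted p = 0.506). Wnt6 had log2 ratios of -0.30, 0.01 and -0.07 at E14.5, -0.11, 0.02 and -0.26 at E18.5, -0.04 and 0.07 at P5, then 0.35, 0.19 and 0.07 at P56. The difference at P56 against E14.5 was 0.32 (SE 0.12, limma adjusted p = 0.0251), while the dimmer probe gave -0.58, the mean over both probes -0.13, the authors' table -0.66 and median centring -0.23. The call was also lost without replicate 1 of E14.5 (0.23, adjusted p = 0.111) or replicate 1 of P56 (0.25, adjusted p = 0.0890).

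The remaining 3 ligands tested passed no test between stages. Wnt1 averaged 0.20 ± 0.03 (SD, n = 3) at E14.5, 0.04 ± 0.07 (n = 3) at E18.5, 0.12 ± 0.08 (n = 2) at P5 and 0.28 ± 0.15 (n = 3) at P56, and was above background on every array. Wnt9a averaged 0.15, 0.04, 0.06 and 0.07 over the 4 stages and was above background on 1 array of P56. Wnt10a averaged 0.22, 0.02, 0.21 and 0.04 and was above background on no array of E18.5. Their 95% intervals for P56 against E14.5 were -0.13 to 0.30 for Wnt1, -0.31 to 0.13 for Wnt9a and -0.46 to 0.10 for Wnt10a.

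The Frizzled receptors did not all move the same way. Of the 8 tested, Fzd1, Fzd2, Fzd7 and Fzd9 fell and Fzd4 and Fzd8 rose between E14.5 and E18.5. Of all genes, 22.8% were lower and 24.6% higher there. At P56 against E14.5, 3 of the 8 were lower and 2 higher, beside 34.8% and 36.1% of all genes. Fzd9 and Fzd5 entered the tests only through E14.5, so the adjusted p of Fzd9 is no separate support for its fall. Fzd1 had log2 ratios of 1.08, 1.27 and 1.05 at E14.5, 0.56, 0.34 and 0.34 at E18.5, 0.85 and 0.63 at P5, then -0.26, -0.32 and -0.69 at P56. It fell by 0.73 at E18.5 (SE 0.13, limma adjusted p = 0.000683), with a difference of -0.58 within the first scan and of -0.54 (adjusted p = 0.146) with scale normalization. A second fall, of -1.16 from P5 to P56 (SE 0.15, limma adjusted p = 5.98e-05; -1.05 within the last scan), left a difference of -1.56 between P56 and E14.5 (SE 0.13, limma adjusted p = 5.13e-07).

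Fzd2 fell once. Its log2 ratios were 1.05, 1.22 and 1.01 at E14.5, 0.26, 0.17 and 0.01 at E18.5, 0.15 and 0.00 at P5, then -0.01, -0.02 and 0.08 at P56, with 1 of the 5 postnatal arrays above background. The arrays of E14.5 lay above all others. The difference at E18.5 was -0.95 (SE 0.10, limma adjusted p = 1.12e-05; -0.84 within the first scan), and a second probe gave -0.55. P56, with no array above background, differed from E14.5 by -1.08 (SE 0.10, limma adjusted p = 1.22e-06).

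Fzd7 dipped and came back. Its log2 ratios were 0.07, 0.20 and -0.18 at E14.5, -0.64, -0.65 and -0.65 at E18.5, -0.44 and -0.33 at P5, then -0.05, -0.03 and 0.00 at P56. The difference at E18.5 against E14.5 was -0.67 (SE 0.10, limma adjusted p = 0.000199; -0.67 within the first scan), and a second probe gave -0.33. The rise of 0.36 from P5 to P56 (SE 0.11, limma adjusted p = 0.0224) became -0.19 with median centring, where the median of all genes was -0.47. That call was also lost without replicate 2 of P5 (0.30, adjusted p = 0.147) or replicate 3 of P56 (0.35, adjusted p = 0.0564) and with the scan as a block (0.30, adjusted p = 0.167). P56 and E14.5 differed by -0.06 (95% interval -0.28 to 0.17, adjusted p = 0.633).

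Fzd9 was above background at E14.5 only, with log2 ratios of 0.43, 0.27 and 0.50 there, 0.22, 0.08 and 0.10 at E18.5, -0.02 and 0.01 at P5, then 0.14, 0.05 and 0.20 at P56. The lowest array of E14.5 was close to the highest of E18.5. In Cy5 level Fzd9 at E14.5 was at least 1.18-fold higher than at E18.5 (for the ratio, limma adjusted p = 0.0335) and at least 1.16-fold higher than at P56 (for the ratio, limma adjusted p = 0.0194). The first call was lost without replicate 1 or 3 of E14.5 or replicate 2 or 3 of E18.5 (adjusted p = 0.0898 to 0.127), and the second without replicate 1 or 3 of E14.5 or replicate 2 of P56 (adjusted p = 0.0556 to 0.0818). Both calls were also lost with median centring, with scale normalization and with the scan as a random block. The first was lost too from processed signals, with the scan as a fixed block and with the methods' t-test, and the second in the Cy5 channel alone.

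Fzd4, a receptor of endothelial cells that also binds the non-Wnt ligand norrin, had log2 ratios of -1.12, -1.19 and -1.16 at E14.5, -0.92, -0.16 and -0.26 at E18.5, -0.18 and -0.16 at P5, then -0.48, -0.29 and -0.39 at P56. The arrays of E14.5 were the lowest throughout, and replicate 1 of E18.5, the only one read in the first scan, stood nearest to them. The rise at E18.5 was 0.71 (SE 0.16, limma adjusted p = 0.00341) over all arrays and 0.24 within that scan (adjusted p = 0.169 with the scan as a block). The difference at P56 against E14.5 was 0.77 (SE 0.16, limma adjusted p = 0.00110), but -0.10 with median centring, where all genes had a median of -0.33.

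Fzd8 rose over the same interval, from -0.44, -0.60 and -0.74 at E14.5 to -0.27, -0.25 and -0.22 at E18.5, and reached 0.01 and -0.03 at P5, then -0.07, -0.24 and -0.07 at P56. The difference at E18.5 was 0.35 (SE 0.10, limma adjusted p = 0.0114; 0.32 within the first scan, adjusted p = 0.118 with the scan as a block), and it was lost without replicate 3 of E14.5 (0.27, adjusted p = 0.0556). At P56 the gene was 0.47 above E14.5 (SE 0.10, limma adjusted p = 0.00103), or 0.12 with median centring (adjusted p = 0.379). Fzd6, with stage means of 0.08, 0.38, 0.25 and 0.03, and Fzd5, with 0.08, -0.07, -0.10 and -0.01, passed no test, although Fzd6 at E18.5 against E14.5 (0.30, adjusted p = 0.0738) passed with the scan as a block (0.53, adjusted p = 0.0115).

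**Figure D5:**
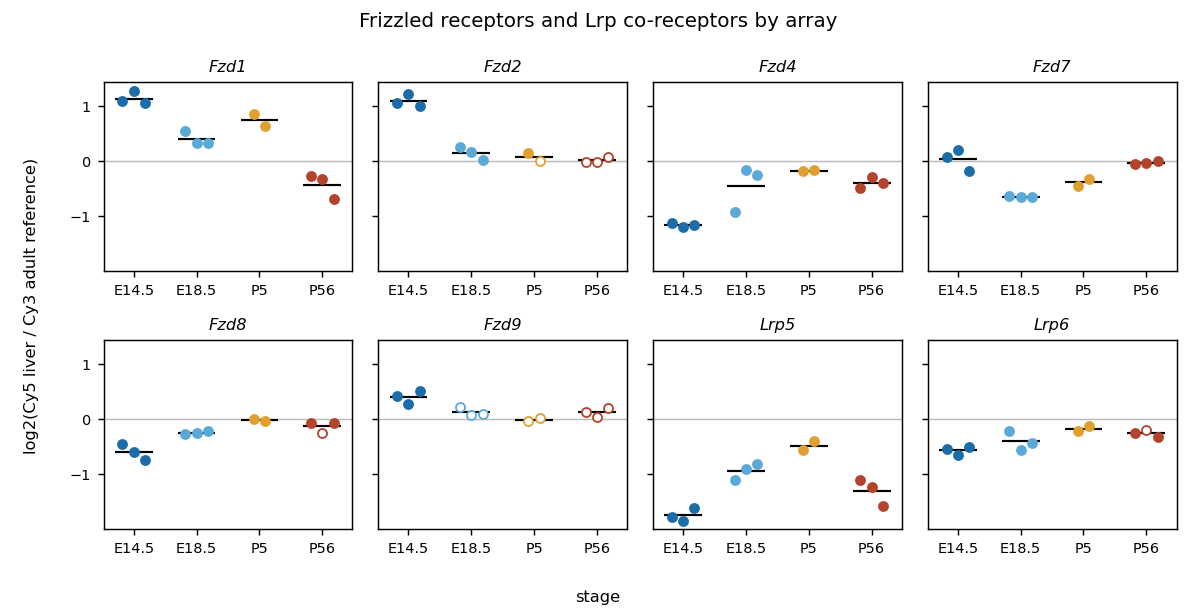
Log2 ratio of liver over the adult reference for each array, by stage, in 6 Frizzled receptors and the co-receptors Lrp5 and Lrp6, with filled points above background in Cy5, open points not, and bars at the stage mean. Fzd1 and Fzd2 are highest at E14.5 and Fzd4 and Lrp5 lowest there, and Lrp5 peaks at P5 (-0.57 and -0.39). With median centring the P56 minus E14.5 differences of Fzd4, Lrp5 and Lrp6 and the P56 minus P5 difference of Fzd7 turned sign, and that of Lrp5 from E14.5 also with scale normalization.

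Of the co-receptors, Lrp5 changed at several steps and Lrp6 between the end points only. Lrp5 had log2 ratios of -1.77, -1.84 and -1.61 at E14.5, -1.10, -0.90 and -0.80 at E18.5, -0.57 and -0.39 at P5, then -1.10, -1.23 and -1.58 at P56. All arrays of E14.5 were lowest and those of P5 highest. It rose at E18.5 by 0.81 (SE 0.13, limma adjusted p = 0.000391), with a difference of 0.64 within the first scan and of 0.57 (adjusted p = 0.0912) with scale normalization. The difference at P56 against P5 was -0.83 (SE 0.15, limma adjusted p = 0.000804; -0.92 within the last scan). The difference at P56 against E14.5 was 0.44 (SE 0.13, limma adjusted p = 0.0111), but -0.41 with median centring, -0.13 with scale normalization and 0.12 (adjusted p = 0.576) in the Cy5 channel alone. Lrp6 had log2 ratios of -0.53, -0.64 and -0.49 at E14.5, -0.21, -0.55 and -0.43 at E18.5, -0.21 and -0.13 at P5, then -0.24, -0.19 and -0.32 at P56. P56 minus E14.5 gave 0.30 (SE 0.10, limma adjusted p = 0.0186), which was -0.02 with median centring and was lost without replicate 2 of E14.5 (0.26, adjusted p = 0.0704) or of P56 (0.28, adjusted p = 0.0539).

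The size of a difference depended on how background was treated, as 3 genes show. Sfrp2 at P56 against E14.5 was -2.37 with an offset of 50, -2.93 with an offset of 16, a choice made after the data were seen, -3.45 in the authors' table and -4.10 from the scanner software's processed signals. Wnt11 at E18.5 against E14.5 was -0.84, -1.29, -1.96 and -2.36 under the same settings. Wnt5b at P56 against P5 was 1.59, 2.00, 2.20 and 2.95, and 0.83 with median centring. The sign was the same under all of these settings for each of the 3 genes.

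Beyond these genes, 39 other genes of the pathway were on the array and 32 passed the filter. At E18.5 against E14.5, 7 were higher and 10 lower, with a median of -0.11 on the log2 scale, and at P56 against E14.5, 11 were higher and 13 lower, with a median of -0.09. Of all genes, 24.6% were higher and 22.8% lower in the first comparison, and 36.1% and 34.8% in the second. From E18.5 to P5, 3 were higher and 2 lower, and from P5 to P56, 7 were higher and 6 lower, beside 7.32% and 6.4%, then 20.9% and 24.7%, of all genes. Over the 17 intracellular genes tested, 3 were higher and 7 lower at E18.5, while none of the 5 other secreted inhibitors passed the test in that comparison.

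Notum, a secreted enzyme that inactivates Wnt by removing its lipid, was 1 of the 5 with the largest differences. Its probe used here, under the array's name 5730593N15Rik, was above background on no embryonic array and on all 5 postnatal ones, while another probe of the gene was above background on all 11 arrays. The log2 ratios of the first were 0.61 to 0.99 at P56, and it rose by 1.72 from P5 to P56 (SE 0.26, limma adjusted p = 0.000237). The other probe gave 0.51 there and 1.05 at P56 against E14.5, where the first gave 2.295 (limma adjusted p = 2.75e-06). The first probe entered the tests only through its postnatal signal. This favoured a rise from E14.5, so the adjusted p of that difference is no separate support for it.

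Lgr4, a receptor for R-spondins, rose at E18.5 by 0.83 (SE 0.09, limma adjusted p = 1.71e-05) and again from P5 to P56 by 1.22 (SE 0.10, limma adjusted p = 2.76e-06), with log2 ratios of -0.88 to -0.79 at E14.5 and 0.89 to 1.08 at P56. Another Lgr4 probe, also above background on all 11 arrays, gave 0.26 and 0.90 in these comparisons, and one above background on 4 arrays gave 0.30 and 0.03. Apc, a scaffold of the complex that degrades β-catenin, was higher at P56 than at E14.5 by 1.65 (SE 0.09, limma adjusted p = 1.87e-08), while its 5 other probes gave -0.10 to 0.37. Dvl1, which passes the signal on inside the cell, was higher at P56 than at E14.5 by 1.29 (SE 0.14, limma adjusted p = 3.97e-06), and its other probe gave 0.52. Lef1, a DNA-binding partner of β-catenin, was high at E18.5 alone, at 1.37 to 1.40, against -0.62 to 0.21 at the other stages. It rose by 1.56 from E14.5 (SE 0.18, limma adjusted p = 2.68e-05) and fell by 1.58 to P5 (SE 0.20, limma adjusted p = 0.000523), while a second probe, above background on 5 arrays, gave 0.62 and -0.70. Lef1 entered the tests only through its signal at E18.5. This filter favoured a peak there, so its adjusted p describe the differences and are no separate support for them.

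Markers of other liver cells moved over the same stages, and their part in the results above was not tested. All markers of each list passed the filter. The shares of all genes that were higher or lower in each comparison are those given above. Of 10 endothelial markers, 6 rose and none fell between E14.5 and E18.5, and 2 rose and none fell from E18.5 to P5. At P56, 1 of these markers was higher and 7 were lower than at P5, and 5 were higher and 1 lower than at E14.5. Their summed Cy5 level, on the log2 scale, had ranges of 11.60 to 11.63, 12.36 to 12.46, 12.74 to 12.93 and 12.30 to 12.72 over the 4 stages in order. Of 10 stellate cell and fibroblast markers, 3 rose and 3 fell between E14.5 and E18.5, and 2 were higher and 7 lower at P56 than at E14.5, with summed levels of 14.15 to 14.59, 14.12 to 14.22, 13.83 to 14.13 and 12.90 to 13.17 over the 4 stages. Of 5 mesothelial markers, 1 was higher and 2 lower at E18.5, and 1 was higher and 3 lower at P56 than at E14.5, with summed levels of 9.70 to 9.91, 10.13 to 10.32, 9.66 to 10.17 and 8.89 to 9.17.

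The median log2 ratio of the stellate and fibroblast list was 0.207 to 0.360 at E14.5 and 0.124 to 0.206 at E18.5. These ranges did not overlap but nearly met. That of the mesothelial list was 0.973 to 1.202, then 0.644 to 0.856, while its summed level, given above, rose. Taken marker by marker, the median difference between these stages was -0.13 for the stellate and fibroblast list and -0.03 for the mesothelial list. These measures thus did not all point the same way. Of 5 biliary markers 3 rose and none fell over the same interval, and of 9 macrophage markers all 9 were higher. All 7 hepatocyte markers were higher at E18.5 and at P56 than at E14.5, and all 7 erythroid and 3 hepatoblast markers were lower at P56 than at E14.5. Endothelial, fibroblast, macrophage and erythroid markers were thus measured in the same arrays as those of hepatocytes, at stages that the second label field names by hepatoblasts or hepatocytes alone.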

How the data were processed

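The study measured RNA of 11 mouse liver samples on Agilent 2-colour arrays of 43379 spots for transcripts and a further 1639 control spots. The authors deposited each array's Feature Extraction 9.5.1.1 output, whose Cy5 and Cy3 mean and background intensities are raw scanner values, and 1 file of log2 values they had normalized, the authors' table, whose centring is not stated and which was used as an alternative. Of its columns, 9 of 11 correlated best with their own array and the other 2 with another array of the same stage.

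Here intensities were background-corrected (normexp, offset 50), loess-normalized within arrays and averaged per probe. Control spots had weight 0 in the loess and were dropped with outlier spots. A gene was read by its brightest probe among those that the scanner software marked, in Cy5, as well above background throughout at least 1 stage, with at most 1 missing value per stage, so 16704 genes were tested (263 with a missing value). Stages, taken from the labels, were compared in 1 limma fit over the 11 arrays, and an adjusted p (Benjamini-Hochberg) under 0.05 was called. No column was left without a sample (0 unmapped). All members were named, with values on each array for those that passed a test in at least 1 comparison, and so were the 5 other pathway genes with the largest differences. Members and gene lists were chosen with earlier results of these data known. The number of arrays limits precision. On simulated data with 200 changed genes of 16704, 33% of log2 changes of 0.5 were recovered at E18.5 against E14.5, and 9% at P5 against E18.5. Of changes of 1, 88% and 88.5% were recovered. In the data far more genes differed, 24.6% higher and 22.8% lower at E18.5 against E14.5. The Benjamini-Hochberg adjustment is stricter where fewer genes change, so these rates can understate recovery in the data. Alternatives covered background correction, normalization, filters, probe choice, scan and replicate blocks, the methods' t-test, the authors' table and leaving out each array. R 4.3.3, limma 3.58.1, Python 3.11.15 and matplotlib 3.10.9 were used.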

Additional observations from a re-analysis of the deposited data

How the results depend on the processing

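Of the settings tried on the differences that passed the test, leaving out no array, 575 kept direction and call, 70 kept direction only and 9 turned direction. Leaving out single arrays kept 453 and lost 31 calls. Of 29 genes tested, the 15 that passed at E18.5 against E14.5 became 9 with scale normalization and 4 where all arrays had to be above background. The 4 at P5 against E18.5 became 0 with scale normalization or the methods' t-test, 2 with all arrays above background and 1 in the authors' table. The 5 at P56 against P5 became 11 without background correction or from processed signals, 10 with median centring, 9 with scale normalization, 3 with the scan as a fixed block or with only the stages compared, 0 with the methods' t-test and 8 with an offset of 16, which was chosen after seeing the data. The 20 at P56 against E14.5 became 12 with median centring and 8 with all arrays above background. At P56, 24 genes were positive and significant against local background and 21 above background on at least 1 array, in place of 10. The 17 other pathway genes at E18.5 against E14.5, counted under each setting by a choice made after seeing the data, became 8 with scale normalization, 9 with all arrays above background, 10 with the scan block and 4 in the authors' table. The 5 at P5 against E18.5 became 8 without background correction, 3 with scale normalization or only the stages compared, 2 with all arrays above background or in the authors' table, and 1 with the t-test. The 13 at P56 against P5 became 23 without background correction or from processed signals, 21 in the Cy5 channel, 6 with the scan block and 1 with the t-test, and the 24 at P56 against E14.5 became 15 in the authors' table. Median centring turned the log2 difference of Fzd7 (-0.19) and of Wnt2 (-0.78) at P56 against P5, and at P56 against E14.5 those of Lrp6 (-0.016), Fzd4 (-0.10), Lrp5 (-0.41), Wnt6 (-0.23) and Wnt2 (-0.0015). Scale normalization turned Lrp5 (-0.13), the mean over probes Wnt6 (-0.13) and the authors' table Wnt6 (-0.66). The cause of these changes was not tested. Without single arrays the counts ran from 14 to 16, 1 (without P5 replicate 3) to 5, 3 (without P5 replicate 2) to 7 and 17 to 21 in the 4 comparisons, from 11 to 19, 3 to 9, 6 to 16 and 22 to 24 for the other pathway genes, and for detection from 25 to 27, 23 to 24, 25 to 25 and 10 to 14. The scan block could not be estimated for P5 against E18.5 or P56 against E14.5. With the replicate number as a block, 15, 3, 4 and 20 genes passed, all of them among those without it, and 16, 4, 12 and 24 other pathway genes. The numbers did not pair the arrays, since 1 of 15 same-numbered pairs had a correlation of deviations over 0.1 (range -0.306 to 0.187).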
